A study of Mus musculus with 35 samples.

Results

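Goblet cells, the mucus-secreting cells of the intestinal lining, are recognised by a small set of secretory genes, and 9 of them are described here: *Muc2*, *Muc13*, *Tff3*, *Fcgbp*, *Clca1*, *Zg16*, *Agr2*, *Spink4* and *Spdef*. They were looked up by symbol, and all 9 were found among the 55356 genes of the combined Iso-seq and ENSEMBL annotation. Their reads were counted in 29 RNA-seq libraries. All came from adult mice of the strain C57BL/6J, for which no treatment is given, and they form 10 groups: female and male colon, brain, cerebellum and heart, the female gonad (ovary) and the male gonad (testis). There were 2 libraries of male heart and 3 of every other group. Iso-seq, which reads full-length cDNA on the PacBio platform, was run on 6 flow cells and entered only through the transcript models. Nothing in the labels says which libraries come from one animal, so that the *P* values below measure the spread between these libraries. Each RNA-seq library also has a code, such as 11, 12, 13, 14 and 15 for 1 female library of each tissue. What the codes stand for is not stated, and a pairing by code was not modelled between the sexes or among the groups outside colon.

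In a goblet cell, the gel-forming mucin is folded in the endoplasmic reticulum, coated with O-linked sugars in the Golgi, packed into granules and released to form the mucus layer. *Muc2* encodes this mucin, which is the scaffold of intestinal mucus, and *Fcgbp* and *Clca1* encode proteins of the same mucus layer, the latter a metalloprotease that cleaves *Muc2*. *Tff3* encodes a trefoil peptide that helps the epithelium to repair, *Zg16* a lectin-like protein that binds Gram-positive bacteria, and *Spink4* a protein of the Kazal-type serine protease inhibitor family. *Muc13* encodes a membrane-bound mucin that absorptive cells of the gut make as well. *Agr2* encodes a protein disulfide isomerase of the endoplasmic reticulum that *Muc2* needs for its folding. *Spdef* is not secreted: it encodes an ETS-family transcription factor of goblet cell maturation.

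On mouse genome GRCm38.p6, *Muc2* (ENSMUSG00000025515) lies on the plus strand of chromosome 7 at 141690340 to 141754693, with 8 transcripts and 47 blocks of exon that cover 7127 bases. Its model holds a stretch of exactly 40000 bases without any exon, from 141704612 to 141744611. *Fcgbp* (ENSMUSG00000047730) lies on the same chromosome and strand, where it was counted under an Iso-seq locus at 28103749 to 28120862 with 1 transcript of 8 exon blocks and 3133 bases. That locus covers only 29.8% of the 10497 exon bases of the GENCODE model, which starts at 28071236, so the reads of the first exons of *Fcgbp* lie outside the model that was counted. *Clca1* (ENSMUSG00000028255), on the minus strand of chromosome 3 at 145004553 to 145032772, was also counted under an Iso-seq locus, with 14 exon blocks, 2915 bases and 77.2% of its GENCODE exons. The Iso-seq locus of *Muc13* (ENSMUSG00000022824), on the plus strand of chromosome 16 at 33794304 to 33819932, has 5 transcripts, 13 exon blocks and 3123 bases and covers 96.8% of the GENCODE exons. It shares 184 exon bases with *Gm15657* on the opposite strand, and since it is not stated whether the counting used the strand, reads of those bases are uncertain.

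The other 6 genes, *Muc2* among them, were counted under ENSEMBL models, which the annotation kept only for genes that Iso-seq had not covered on their own strand. *Tff3* (ENSMUSG00000024029) lies on the minus strand of chromosome 17 at 31125306 to 31129646 and has 3 exons of 493 bases. *Spdef* (ENSMUSG00000024215) lies on the same strand of chromosome 17 at 27714352 to 27728955, with 6 exon blocks of 2305 bases. *Zg16* (ENSMUSG00000049350) spans 127050156 to 127087328 on the minus strand of chromosome 7, with 8 exon blocks of 1257 bases. *Agr2* (ENSMUSG00000020581) lies on the plus strand of chromosome 12 at 35992907 to 36004087, with 8 exon blocks of 1291 bases. *Spink4* (ENSMUSG00000028415) lies on the plus strand of chromosome 4 at 40920052 to 40931395 and has the shortest model, with 4 exon blocks of 477 bases. *Zg16* and *Tff3*, which had the highest levels per length of the 9 genes in colon, were thus without an Iso-seq model of their own.

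The 250 bases before the RefSeq start site are shown for 3 genes, namely the mucin, its folding enzyme and the transcription factor. All 3 were highest in the same colon library (given below), as were *Muc13* and *Clca1*, which are not shown. Capitals mark matches, on either strand, to 5 sets of letters: the TATA box TATAAA, the CDX-type site TTTATG, the FOX-type site TGTTTAC, the E-box CAGCTG and the HNF1-type site GTTAAT. On the minus strand the CDX-type letters read CATAAA, which shares 5 letters with the TATA box. The *Muc2* window is chr7:141690090-141690339 on the plus strand, the *Agr2* window chr12:35992675-35992924 on the plus strand and the *Spdef* window chr17:27728952-27729201 on the minus strand (RefSeq, GRCm38.p6).
Muc2: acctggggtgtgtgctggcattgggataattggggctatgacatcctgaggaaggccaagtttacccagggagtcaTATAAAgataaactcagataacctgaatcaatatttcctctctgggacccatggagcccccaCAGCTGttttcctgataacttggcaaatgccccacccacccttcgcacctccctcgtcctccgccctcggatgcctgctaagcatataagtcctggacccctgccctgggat
Agr2: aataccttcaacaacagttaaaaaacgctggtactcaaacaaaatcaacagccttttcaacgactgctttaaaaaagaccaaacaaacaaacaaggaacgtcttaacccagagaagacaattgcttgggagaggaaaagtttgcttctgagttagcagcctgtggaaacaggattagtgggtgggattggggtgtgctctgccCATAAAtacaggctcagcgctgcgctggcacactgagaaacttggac
Spdef: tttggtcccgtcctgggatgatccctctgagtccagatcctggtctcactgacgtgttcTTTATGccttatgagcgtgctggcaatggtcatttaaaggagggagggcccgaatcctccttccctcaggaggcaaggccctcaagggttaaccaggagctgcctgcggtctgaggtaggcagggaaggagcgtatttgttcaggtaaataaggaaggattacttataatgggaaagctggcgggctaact
The *Muc2* window holds the TATA letters from 174 bases and the E-box letters from 112 bases before the start. In *Agr2* the CDX-type letters begin 47 bases before the start on the minus strand, and in *Spdef* they begin 191 bases before it on the plus strand. RefSeq windows were at hand for 5 of the 9 genes, 6 windows in all with 2 for *Muc13*, and 3 of the 6 held the CDX-type letters, 2 the E-box, 1 the TATA box, 1 the HNF1-type site and 0 the FOX-type site. Among 32851 mouse promoter windows of this length, 10.8% held the CDX-type letters, 13.0% the E-box, 12.4% the TATA box, 6.43% the HNF1-type site and 3.17% the FOX-type site. These matches describe the letters only.

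Libraries held between 11742417 and 36194255 counts, and the 6 colon libraries, with 11742417 to 18890658, were among the shallower ones. In the colon libraries every gene of the epithelial list and of the absorptive colonocyte list was counted, and the colonocyte carbonic anhydrase *Car1* reached a mean of 10400 FPKM, so the labelled tissue was present in all of them. CPM is the count scaled to a library total of 1000000, and FPKM is CPM per kilobase of exon. However, 2 of these libraries, female colon replicate 1 and male colon replicate 3, stood apart from the other 4. They held transcripts of Paneth cells, the antimicrobial cells of small intestinal crypts that adult mouse colon lacks. The 5 Paneth cell genes (*Lyz1*, *Defa24*, *Defa17*, *Mmp7* and *Itln1*) summed to 519 and 758 CPM in these libraries and to 10.2 to 53 CPM in the other 4, against 0 to 15 CPM outside colon. The defensin gene *Defa24* had 1304 and 2932 counts in them and 0 to 3 counts in the other 4, although it belongs to a family of near-identical copies among which unique mapping leaves counts uncertain. In a list chosen after these values were seen, the small intestinal disaccharidase *Sis* had 10030 and 4874 counts against 12 to 23, and the ileal bile acid binding protein *Fabp6* had 1117 and 1630 counts against 1 to 10. *Fabp2*, *Alpi* and *Rbp2* of the same list did not separate the libraries. The library codes in the labels end in 9 for these 2 libraries and in 4 for the other 4 colon libraries, and the meaning of the digits is not stated. The main comparisons, the order of levels and the lists are given with and without these libraries.

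**Figure D1:**
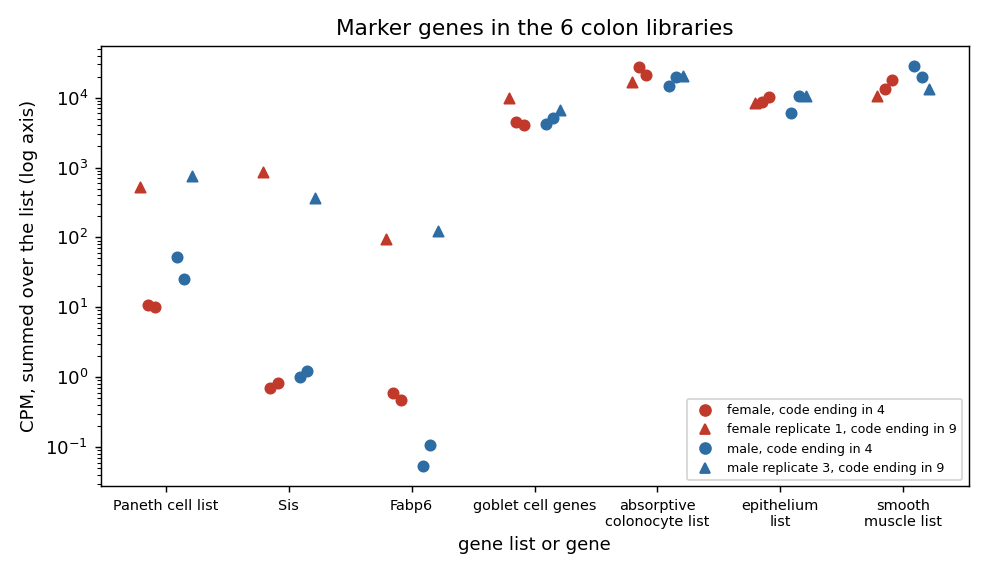
CPM (log axis) summed over a gene list, or of *Sis* and *Fabp6* alone, in each of the 6 colon libraries, with 1 point per library, red for females and blue for males. Triangles are the libraries with a code ending in 9: the Paneth cell list was at 519 and 758 CPM there and at 10.2 to 53 CPM in the circles, while the smooth muscle list was at 10400 and 13400 CPM in the triangles and at 13500 to 28400 CPM in the circles, and the epithelial and colonocyte lists overlapped.

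Of the gel scaffold, *Muc2* was measured at 3740, 685 and 820 CPM in female colon replicates 1 to 3 and at 830, 853 and 1520 CPM in male colon replicates 1 to 3. Female replicate 1 held 43893 reads of it in the shallowest library of the study, and the 4 libraries with a code ending in 4 lay between 685 and 853 CPM. *Fcgbp*, the partner of the mucin in the gel, was at 996, 511 and 508 CPM in females and at 1010, 1130 and 1090 CPM in males. Here female replicates 2 and 3 were low and the other 4 libraries lay close together. The protease gene *Clca1* was at 1990, 516 and 482 CPM in females and at 663, 968 and 1360 CPM in males. It was high in the libraries that were high for *Muc2*, and lowest in female replicates 2 and 3.

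Of the small secreted proteins, *Zg16* was at 711, 584 and 505 CPM in females and at 394, 609 and 736 CPM in males, and the highest library was 1.87 times the lowest. *Tff3* was the most even of the 9 genes, at 176, 196 and 215 CPM in females and 197, 279 and 290 CPM in males. Unlike *Muc2*, it was lowest in female replicate 1. *Spink4* was at 167, 221 and 142 CPM in females and at 102, 95.4 and 151 CPM in males, and its highest library was female replicate 2.

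The membrane mucin gene *Muc13* was at 1860, 1630 and 1320 CPM in females and at 898, 1110 and 1410 CPM in males, with male replicate 1 the lowest. *Agr2* was at 306, 88.6 and 119 CPM in females and at 101, 94 and 155 CPM in males, which put female replicate 1 at 3.46 times the lowest library. The transcription factor *Spdef* was at 9.11, 3.57 and 5.57 CPM in females and at 4.23, 6.01 and 8.32 CPM in males. These levels of *Spdef* rested on 61 to 113 reads per library, whereas every other gene of the set had 1513 reads or more in each colon library.

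Per kilobase of exon, the 9 genes were ordered by their colon mean as *Zg16* (469 ± 102 FPKM, SD, n = 6), *Tff3* (457 ± 96.2), *Muc13* (439 ± 111), *Clca1* (341 ± 201), *Spink4* (307 ± 96.6), *Fcgbp* (279 ± 92), *Muc2* (198 ± 165), *Agr2* (112 ± 64.4) and *Spdef* (2.66 ± 0.954). Neighbours in the upper part of this order were not separated: *Zg16* was above *Tff3* in 2 of 6 libraries, *Tff3* above *Muc13* in 4, *Muc13* above *Clca1* in 4, *Clca1* above *Spink4* in 4 and *Spink4* above *Fcgbp* in 3. *Fcgbp* was above *Muc2* in 5 of 6 libraries, and *Muc2* above *Agr2* and *Agr2* above *Spdef* in all 6. Without the 2 libraries with Paneth cell genes, the means over the other 4 were 450 ± 79.3 FPKM for *Tff3* (SD, n = 4), 416 ± 77 for *Zg16*, 396 ± 99.6 for *Muc13*, 294 ± 121 for *Spink4*, 252 ± 105 for *Fcgbp*, 225 ± 76 for *Clca1*, 112 ± 10.7 for *Muc2*, 78 ± 10.4 for *Agr2* and 2.1 ± 0.493 for *Spdef*. *Clca1* was then in place 6 in place of 4, and *Tff3* was above *Zg16* in 3 of 4 libraries. The levels of *Fcgbp* and *Clca1* are those of the parts of their exons that were counted, and their places over the full GENCODE exons are not known. The same counts divided by the GENCODE exon length gave 83.4 FPKM for *Fcgbp* and 263 FPKM for *Clca1*, values that hold no reads from the exons left out of the count.

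Counted in reads rather than per length, the 9 genes together took 0.995%, 0.443% and 0.411% of all counts in female colon replicates 1 to 3 and 0.42%, 0.515% and 0.672% in male colon replicates 1 to 3. The 2 libraries with Paneth cell genes held the largest shares. *Muc2* supplied 15.5% to 37.6% of the reads of the set, *Muc13* 18.7% to 36.7%, and *Spdef* 0.0806% to 0.135%. In bulk tissue, fewer goblet cells and less RNA per goblet cell cannot be told apart.

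**Figure D2:**
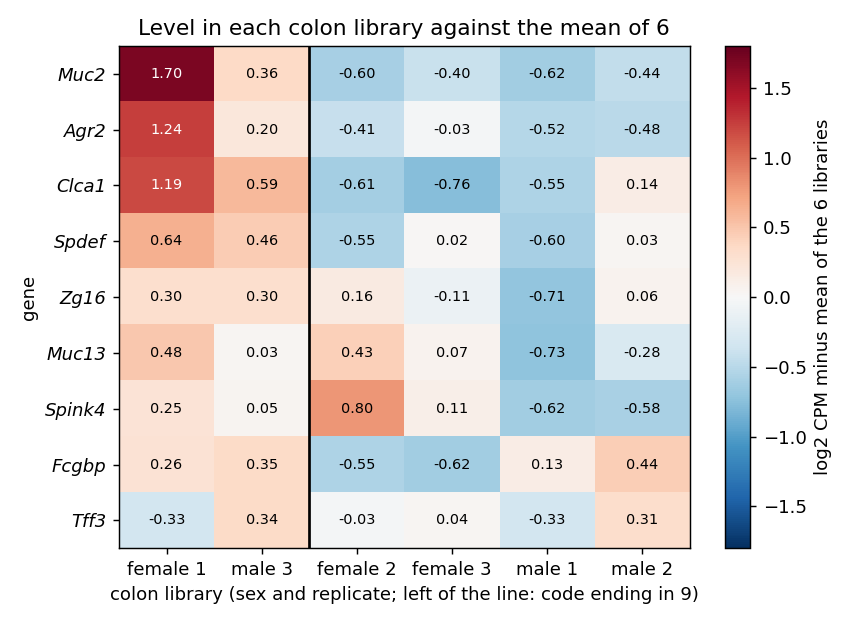
Log2 CPM (TMM-normalised, prior count 2) of each gene in each colon library minus the mean of the 6 libraries, as colour and as the printed value. Left of the line are the libraries with a code ending in 9: *Muc2*, *Agr2* and *Clca1* were 1.70, 1.24 and 1.19 above their mean in female replicate 1, whereas *Tff3* was 0.33 below it (-0.33).

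Which genes of the set moved with the libraries that carry Paneth cell genes was then described. The mean of those 2 libraries was 3.3 times that of the other 4 for *Muc2*, 2.54 times for *Clca1*, 2.29 times for *Agr2*, 1.8 times for *Spdef* and 1.38 times for *Zg16*, and for these 5 genes both libraries were above all of the other 4. The ratio was 1.32 for *Muc13*, 1.32 for *Fcgbp*, 1.13 for *Spink4* and 1.05 for *Tff3*, and for these 4 genes the libraries overlapped. The 6 smooth muscle genes had means in those 2 libraries of 0.489 to 0.645 times those in the other 4. The part of the Paneth cell and ileal transcripts and of the smooth muscle share in these differences was not tested.

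The spread between colon libraries also differed among the 9 genes. The SD of log2 CPM over the 6 libraries was 0.91 for *Muc2*, 0.78 for *Clca1* and 0.67 for *Agr2*, and 98.6%, 98% and 96.9% of the 10068 genes with a colon mean of at least 10 CPM had a smaller SD. *Tff3*, at 0.29, stood near the middle of those genes (57.7% had a smaller SD) and *Zg16*, at 0.38, somewhat higher (77.6%). The median SD was 0.51 over the 9 genes, 0.39 over all 29911 genes tested and 0.27 over the genes of at least 10 CPM. Without the 2 libraries, the SD was 0.11 for *Muc2*, 0.22 for *Agr2* and 0.4 for *Clca1*, while it was 0.67 for *Spink4*, 0.52 for *Fcgbp* and 0.5 for *Muc13*. The gel mucin gene was then the most even of the 9.

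Colon was compared with the other tissues to ask how far these genes were restricted to it. All 9 were higher in colon than in the mean of the 8 other groups (edgeR's quasi-likelihood test, Benjamini-Hochberg adjusted *P* under 0.05), a call that 29.1% of the 29911 genes tested received. This comparison is on the log2 scale, with the 8 groups weighted equally, so a gene can be called higher in colon although 1 other tissue has more of it. The median log2 difference of the 9 was 12.62, and that of all genes tested was -0.34. *Muc13* had a colon mean 7300 times its mean outside colon, and its lowest colon library, at 898 CPM, was 1350 times its highest library elsewhere (log2 difference 12.68 ± 0.204, SE, adjusted *P* = 4.07e-25). *Clca1* followed with a ratio of means of 6520 (13.09 ± 0.318, adjusted *P* = 2.58e-21). The ratio was 4140 for *Muc2* (12.75 ± 0.386, adjusted *P* = 5.76e-20) and 4120 for *Tff3* (12.62 ± 0.242, adjusted *P* = 3.13e-21).

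The ratio of means was 2570 for *Fcgbp* (12.38 ± 0.188, adjusted *P* = 6.46e-25), 2150 for *Zg16* (13.58 ± 0.204, adjusted *P* = 5.24e-25) and 1350 for *Agr2* (11.36 ± 0.3, adjusted *P* = 1.99e-19). For each of these 7 genes, 99.5% to 99.9% of its reads over the 29 libraries were in colon. *Spink4* was less restricted, with a ratio of 203 and 96.8% of its reads in colon (8.91 ± 0.242, adjusted *P* = 6.15e-21). *Spdef* had the smallest ratio, 32.9, and 82.4% of its reads in colon (6.1 ± 0.375, adjusted *P* = 1.52e-12). Its mean outside colon, 0.187 CPM, was the same as that of *Muc13*, while its colon mean was only 6.14 CPM. Its lowest colon library, at 3.57 CPM, was 5.23 times its highest library elsewhere, so colon and the other tissues did not overlap for any of the 9 genes.

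For *Tff3*, *Fcgbp*, *Clca1*, *Zg16*, *Agr2* and *Spdef*, 1 or 2 of the 8 groups had no read at all, and their fitted log2 differences then depend on the prior count. Against each of the 5 other tissues on its own, all 9 were again higher in colon, as were 8.71% of all genes tested, and the smallest differences were those of *Spdef* (3.08 ± 0.605, SE, adjusted *P* = 9.73e-05) and *Spink4* (5.14 ± 0.427, adjusted *P* = 5.66e-11) against testis. *Zg16* differed least from ovary (8.63 ± 0.358, adjusted *P* = 2.1e-15). Without the 2 libraries with Paneth cell genes, all 9 were still higher in colon, beside 27% of all genes. The log2 difference was then 12.01 for *Muc2*, 12.49 for *Clca1*, 10.91 for *Agr2* and 5.8 for *Spdef*, and 12.64 for *Tff3*.

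**Figure D3:**
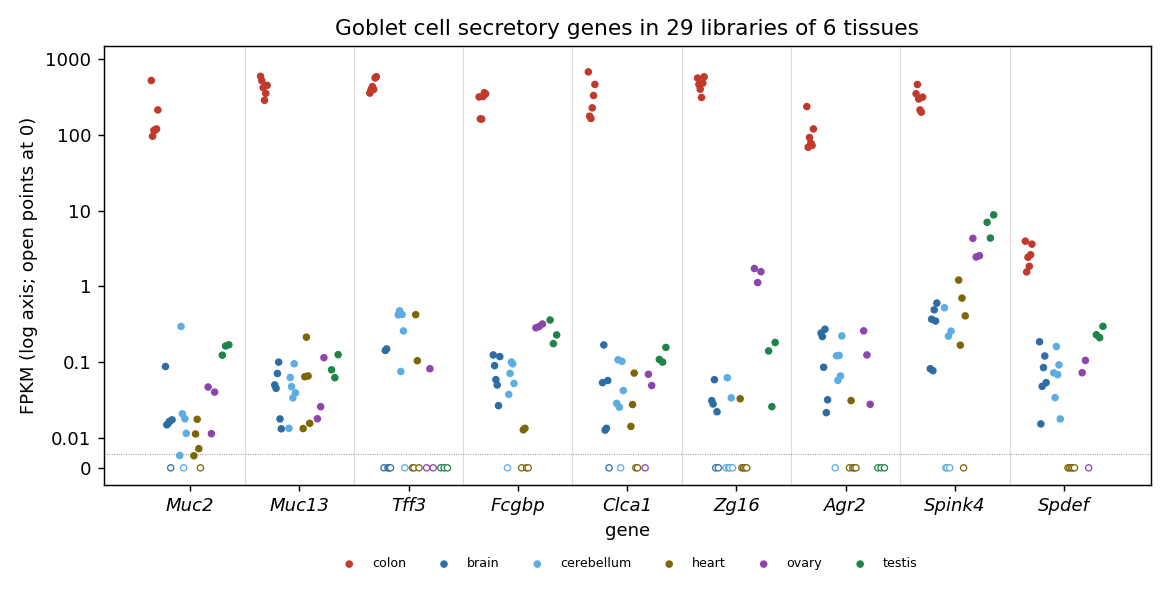
FPKM of the 9 genes in each of the 29 libraries (log axis, 1 point per library, coloured by tissue, with open points for libraries without a read). Every colon point lies above every other point of the same gene, *Spdef* at 1.55 to 3.95 FPKM included, and *Spink4* in testis reached 8.79 FPKM.

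Outside colon, the 9 genes summed to 0.242 to 7.87 CPM per library, against 4110 to 9950 CPM in colon. The gonads were highest, with 4.79 to 7.87 CPM in testis and 4.3 to 5.99 CPM in ovary, and male heart was lowest, with 0.242 and 0.306 CPM. Whether these traces differed among the 8 groups was tested with edgeR's quasi-likelihood F test over the groups. It called 6 of the 9 genes, beside 88% of all genes tested, so a call is not particular to the set. The genes differed in where their reads were.

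*Zg16* had 39, 35 and 55 reads in the ovary libraries (1.84 ± 0.391 CPM, SD, n = 3) and 5, 1 and 7 in testis, while each of the other 17 libraries had 0 to 2 reads (F = 32.5, adjusted *P* = 3.81e-10). *Spink4* had 95, 64 and 129 reads in testis (3.2 ± 1.07 CPM) and 37, 29 and 34 in ovary (1.48 ± 0.499 CPM), and 0 to 14 reads elsewhere (F = 26, adjusted *P* = 1.98e-09). *Fcgbp* had 32, 17 and 22 reads in testis and 16, 23 and 28 in ovary, against 0 to 10 elsewhere (F = 13.2, adjusted *P* = 1.52e-06). These 3 genes were thus highest in gonads, *Zg16* in ovary and *Spink4* in testis.

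*Spdef* had 15, 15 and 21 reads in testis, 0 to 11 in brain, cerebellum and ovary, and 0 in all 5 heart libraries (F = 5.86, adjusted *P* = 0.000864). *Muc2* had 25, 36 and 37 reads in testis and at most 16 in every other library except female cerebellum replicate 2, which held 54 reads beside 1 and 4 in the other female cerebellum libraries (F = 4.24, adjusted *P* = 0.00424). *Tff3* was called narrowly (F = 2.9, adjusted *P* = 0.0324), with 0 to 6 reads in every library outside colon. Without female cerebellum replicate 2, its adjusted *P* was 0.0807 and 5 of the 9 genes were called, beside 26143 of all 29851 genes.

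*Agr2* (F = 2.3, adjusted *P* = 0.0717), *Muc13* (F = 1.48, adjusted *P* = 0.232) and *Clca1* (F = 1.43, adjusted *P* = 0.255) did not pass the threshold in edgeR. By DESeq2, which called 25141 of all 29841 genes, all 3 passed (adjusted *P* = 0.00372, 0.0181 and 0.0295), and *Agr2* passed in 6 of 12 alternatives. *Agr2* had 0 to 9 reads, *Muc13* 1 to 16 and *Clca1* 0 to 14 reads in each library outside colon. *Tff3* and *Agr2* had no read in any of the 3 testis libraries, which allows up to 0.0333 CPM (3 counts of the 90144851 reads of the group, counting error only). *Spdef* had none in female heart, which allows up to 0.0409 CPM. At 0 to 16 reads, most of these traces are too small to order the tissues.

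Male and female colon were compared because sex is the one contrast within this tissue. None of the 9 genes passed the threshold between the sexes (0 of 9 by edgeR's quasi-likelihood test and 0 of 9 by DESeq2, with 3 at an unadjusted *P* under 0.05), while 0.324% of all genes tested did. Those 3 were *Muc13*, *Fcgbp* and *Spink4*. *Fcgbp* was at 1080 ± 63.9 CPM in males and 672 ± 281 in females (SD, n = 3 each; log2 difference, male minus female, 0.55 ± 0.262, SE, adjusted *P* = 0.551). *Muc13* was at 1140 ± 259 CPM in males and 1600 ± 272 in females (-0.63 ± 0.296, adjusted *P* = 0.548), and *Spink4* at 116 ± 30.1 and 177 ± 40.3 (-0.77 ± 0.366, adjusted *P* = 0.558).

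For *Muc2*, the difference was -0.81 ± 0.551 (adjusted *P* = 0.723), with 1070 ± 393 CPM in males and 1750 ± 1730 in females, where 1 library accounts for most of the spread. *Agr2* stood at -0.67 ± 0.385 (adjusted *P* = 0.641) and *Tff3* at 0.24 ± 0.299 (adjusted *P* = 0.909). *Zg16* (-0.18 ± 0.255), *Clca1* (-0.1 ± 0.433) and *Spdef* (-0.09 ± 0.58) were close to 0, and the direction of all 3 changed with the libraries used. Each sex holds 1 of the 2 libraries with Paneth cell genes. Without them, 0 of 9 genes were called beside 0.345% of all genes. *Muc2* then differed by -0.04 (752 CPM in females and 842 CPM in males), *Clca1* by 0.52 (499 and 815 CPM, adjusted *P* = 0.819; 0.82 without female replicate 1 alone), *Fcgbp* by 0.88 (510 and 1070 CPM, adjusted *P* = 0.324) and *Spink4* by -1.09 (182 and 98.7 CPM, adjusted *P* = 0.522). With 2 libraries a sex, differences of this size did not pass the threshold.

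The machinery that makes and releases mucus was examined in lists of related genes. Of 14 genes of mucin O-glycosylation, 13 were higher in colon than in the mean of the other groups and 0 lower (median log2 difference 2.56), beside 29.1% higher and 31.3% lower among all genes tested. *Gcnt3*, which branches the sugar core, was the furthest (11.78 ± 0.233, SE, adjusted *P* = 1.15e-23; 138 ± 17.8 FPKM, SD, n = 6), followed by *B4galnt2*, which adds a terminal N-acetylgalactosamine (10.87 ± 0.165, adjusted *P* = 1.69e-25; 293 ± 39.6 FPKM). The first enzymes of the pathway, the polypeptide N-acetylgalactosaminyltransferases, differed less, from 2.05 for *Galnt5* to 4.94 for *Galnt3*. The sialyltransferase gene *St3gal4* was the 1 that did not pass (-0.04 ± 0.407, adjusted *P* = 1). It was at 178 and 125 CPM in the 2 libraries with Paneth cell genes and at 7.92 to 14.1 CPM in the other 4. Without those 2, it was lower in colon (-2.33, adjusted *P* = 2.22e-13), *C1galt1c1* no longer passed (0.32, adjusted *P* = 0.0805), and the count was 12 higher and 1 lower, beside 27% and 29.8% of all genes. *C1galt1c1* and *Galnt4* were each counted under an Iso-seq locus that holds 2 genes, so their values are not those of 1 gene alone.

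Of 15 genes of endoplasmic reticulum stress and granule release, 11 were higher in colon and 1 lower, against the same shares of 29.1% and 31.3% over all genes, with a median log2 difference of 1.11. For *Creb3l4* (1.38) and *Sytl4* (0.46), which are among the 11, the colon mean was below the linear mean of the libraries outside colon, 2.89 against 24.6 FPKM and 2.29 against 3.32 FPKM. *Ern2*, the stress sensor of secretory epithelium, stood at 8.26 ± 0.423 (adjusted *P* = 3.31e-13) and *Fer1l6* at 7.36 ± 0.226 (adjusted *P* = 7.52e-20). Genes of the same machinery that most cells use were nearer to 0, such as *Xbp1* (0.78 ± 0.0805, adjusted *P* = 4.14e-09), and the chaperone gene *Hspa5* was lower in colon (-0.43 ± 0.127, adjusted *P* = 0.00419). The highest level per length among them was that of *Hspa5* in colon, 78.8 ± 23.6 FPKM, and the next was that of *Vamp8*, a granule fusion protein, 50.7 ± 17.9 FPKM. *Creb3l1*, *Bcas1* and *Tgm3* did not pass. Without the 2 libraries, 10 were higher and 2 lower, beside 27% and 29.8% of all genes. *Sytl4* then no longer passed (0.34, adjusted *P* = 0.15) and *Bcas1* was lower (-0.68, adjusted *P* = 0.0164).

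All 10 regulators of the secretory lineage were higher in colon, also without the 2 libraries, with median log2 differences of 8.47 and 8.45, beside 29.1% and 27% of all genes tested. The intestinal homeobox genes were the furthest, *Cdx2* at 13.64 ± 0.229 (adjusted *P* = 6.4e-20) and *Cdx1* at 12.58 ± 0.268 (adjusted *P* = 4.85e-19). *Elf3* and *Klf4* had the highest levels in colon, 171 ± 44.5 and 152 ± 27.3 FPKM. *Atoh1*, which sets the secretory fate, was at 5.65 ± 1.42 FPKM (9.84 ± 0.437, adjusted *P* = 2.5e-12), a level of the same order as that of *Spdef*. Across the colon libraries *Atoh1* was at 8.21 to 16.5 CPM. Unlike for *Muc2*, the 2 libraries with Paneth cell genes, at 11.6 and 16.5 CPM, were not both above the rest. In the other colon libraries *Atoh1* ranged from 8.21 to 14.5 CPM and *Muc2*, relatively more even there, from 685 to 853 CPM. *Hes1*, which opposes the secretory fate, differed by only 0.78 ± 0.131 (adjusted *P* = 1.07e-05).

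Among 12 genes listed as other products of goblet cells, 10 could be tested, of which 9 were higher in colon and 1 lower (median log2 difference 10.7, and 8.94 with the same counts without the 2 libraries). Over all genes tested, 29.1% were higher and 31.3% lower, and 27% and 29.8% without the 2 libraries. *Muc3*, a membrane mucin, had the highest level per length of the list, 2240 ± 678 FPKM, above that of each of the 9 genes, and *Clca4a* was at 997 ± 418 FPKM (log2 difference 14.1 ± 0.242, adjusted *P* = 4.1e-24). Bulk tissue does not tell which cells of the colon made the transcripts of *Muc3* and *Clca4a*. *Muc1* was lower in colon (-0.87 ± 0.272, adjusted *P* = 0.0073) and rested on 5 to 12 reads per colon library. *Tff1*, the trefoil gene of stomach, had 0 reads in colon, and *Tff2* 0 to 2 reads, in contrast to the 2066 to 5246 reads of *Tff3*. *Clca4b* was at 861 and 501 CPM in the 2 libraries with Paneth cell genes and at 4.23 to 8.84 CPM in the other 4, and reads that fit it and *Clca4a* equally well were not counted. *Ang4*, an antimicrobial ribonuclease of Paneth and goblet cells, was at 26.7 and 24.4 CPM against 0.611 to 2.07 CPM. *Retnlb* and *Reg4* did not separate the libraries in this way.

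**Figure D4:**
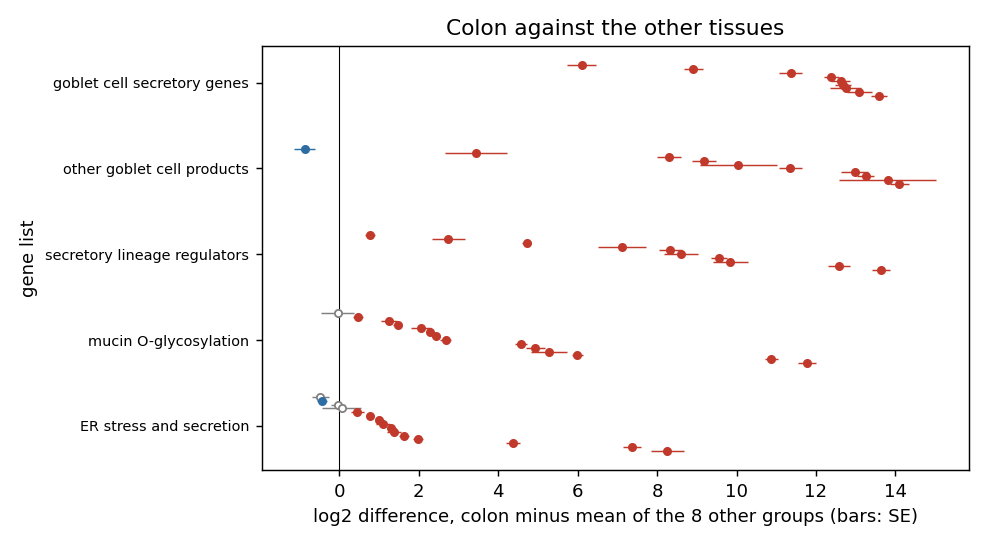
Log2 difference between colon and the mean of the 8 other groups (edgeR, bars are SE) for the 9 genes and the 4 lists of related genes, 1 point per gene. Red points were higher, blue points lower and open points did not pass the threshold; all 9 secretory genes lie between 6.1 and 13.58, while the stress and secretion list lies between -0.47 and 8.26. Differences of genes without a read in a group depend on the prior count.

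The lists of other colon cells give the setting. All 8 epithelial and all 8 colonocyte genes were higher in colon, as were 5 of 6 enteroendocrine genes tested, all 6 smooth muscle, 5 fibroblast and 6 plasma and other immune cell genes, while 1 of 5 tuft cell genes was higher and 1 lower, and 2 of 6 genes of enteric neurons and glia were higher and 4 lower. Over all genes tested, 29.1% were higher and 31.3% lower. The enteroendocrine genes called higher include *Chga* and *Chgb*, whose colon means of 7.58 and 10.1 FPKM were below the linear means outside colon (15.3 and 33.4 FPKM), and the list summed to 64.6 to 86.4 CPM in colon and to 225 to 308 CPM in brain and cerebellum. Without the 2 libraries, 27% of all genes were higher and 29.8% lower. Of the tuft cell genes, 2 were then higher and 1 lower, and the counts of epithelial, colonocyte, enteroendocrine, muscle, fibroblast, neural and immune genes were as before. All 5 Paneth cell genes were called higher, and 2 of the 3 that could be tested without the 2 libraries. Across the colon libraries in the order used above, the colonocyte list summed to 16500, 27500 and 20900 CPM in females and 14500, 19500 and 20200 CPM in males. The smooth muscle list summed to 10400, 13500 and 18100 CPM and to 28400, 19700 and 13400 CPM. Smooth muscle was lowest in the 2 libraries with Paneth cell genes, female replicate 1 and male replicate 3, in which *Muc2*, *Clca1*, *Agr2*, *Spdef* and *Zg16* were highest. Male replicate 3 and female replicate 2 were close, at 13400 and 13500 CPM of smooth muscle genes, while the 9 genes summed to 6720 and 4430 CPM in them. It was highest in male replicate 1, where *Zg16* and *Muc13* were lowest. The part of tissue composition in the levels of the 9 genes was not tested.

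The genes most like the set were those with the highest Pearson *r* with the mean log2 CPM of the 9 genes, searched among 10060 genes with a colon mean of at least 10 CPM. Over the 29 libraries they were *Sult1d1* (*r* = 0.9944), *Slc17a4* (0.994), *9130016M20Rik* (0.9935), *Entpd8* (0.9931) and *Clca3b* (0.9931), all of them at 0.422 CPM or less in every library outside colon. Over the 6 colon libraries alone they were *Mgat4a* (*r* = 0.9886), *Ralgapa2* (0.9878), *Upp1* (0.9872), *Ppara* (0.9813) and *Ttc19* (0.9786). The 29 libraries share the contrast of colon with the other tissues, and the 6 colon libraries share the division by Paneth cell genes, so these values describe the libraries. The 2 searches had 0 names in common. Without the 2 libraries with Paneth cell genes, *Slc17a4*, *Sult1d1*, *Entpd8* and *Clca3b* were again among the first 5 over 27 libraries (*r* = 0.9925, 0.9925, 0.991 and 0.9908), with *Cdx2* (0.9912) in place of *9130016M20Rik*. Over the 4 colon libraries left, *r* was 0.926 for *Mgat4a*, 0.97 for *Ralgapa2*, 0.909 for *Upp1*, 0.873 for *Ppara* and 0.983 for *Ttc19*, a description of few points for genes chosen on all 6.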

How the data were processed

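RNA was depleted of ribosomal RNA and sequenced from strand-specific libraries. The authors deposited whole-number counts of uniquely mapped reads per gene, without normalization, for an annotation of Iso-seq and ENSEMBL transcripts on GRCm38.p6. The submitters' processing notes name FastQC 0.11.8, MultiQC 0.9, HISAT2 2.0.5 and featureCounts 1.6.3, and whether the counting used the strand is not given in the sources used here. All 29 count columns were used, and there were 0 other per-sample columns.

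Counts were fitted with edgeR 4.0.16 (R 4.3.3) by the quasi-likelihood test, in one model over the 29 libraries with a mean for each of 10 groups, TMM factors and edgeR's filter on low counts, which left 29911 genes, all 9 genes described among them. Adjustment of *P* values was by Benjamini-Hochberg over the whole table, with a threshold of 0.05. CPM was taken over the total count of a library, and FPKM over the union of exons in the deposited annotation. The spread used log2 CPM with TMM factors and a prior count of 2. DESeq2 1.42.0, other scalings, no filter and libraries left out were tried as alternatives. The 28 pairs of libraries within a group differed by more than the sampling noise (chi-square per gene from 10.1 to 286), with 0 identical pairs. The fit was tested on simulated counts. The genes described, the 13 lists and the rule for genes named were chosen with earlier results of these data known. The rule took from each list the genes with the largest difference and those with the highest colon FPKM, and others were named after their values were seen. Of 108 list genes, 107 were matched, and *Fcgbpl1* was not.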

Additional observations from a re-analysis of the deposited data

Results flagged for a closer look

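Each of the 9 genes was examined in brain, cerebellum, heart and colon over the libraries of both sexes, and in 9 of these 36 sets 1 library was far from the others by Dixon's criterion. Chance meets it in about 1 of 20 sets of continuous values, and that rate does not hold where most libraries are at 0 or a few reads. In colon, female replicate 1 was far above the rest for *Muc2* (3740 CPM, with 1520 CPM in the next library) and for *Agr2* (306 and 155 CPM). This is the library with the most *Sis* reads, and the next one for both genes was the other library with Paneth cell genes.

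The other 7 were traces outside colon. *Muc2* had 54 reads in female cerebellum replicate 2 (2.1 CPM, next 0.148) and 16 reads in female brain replicate 1 (0.622 CPM, next 0.123). Female heart replicate 3 was highest for *Muc13* (16 reads, 0.666 CPM, next 0.204) and for *Tff3* (5 reads, 0.208 CPM, next 0.051). The code of this library is 8, while those of the other heart libraries end in 3. *Clca1* had 14 reads in female brain replicate 2 (0.491 CPM, next 0.166). *Zg16* in female heart replicate 1 (0.0411 CPM) and *Agr2* in female heart replicate 2 (0.0399 CPM) each rested on 1 read, with 0 in the other heart libraries, which meets the criterion by construction. All 7 were in female libraries, but they are not independent, since those of *Muc13* and *Tff3* are in the same library. A difference between the sexes in such traces was not tested.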

How the results depend on the processing

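All 9 genes stayed higher in colon and 0 of 9 passed between the sexes in colon under every alternative (DESeq2, RLE or no scaling factors, no filter, each colon library left out, replicate number as a block, and for the first comparison the first digit of the library code and each tissue on its own). Leaving out 1 colon library at a time gave 9 to 9 genes higher in colon, 0 to 0 between the sexes, 6 to 7 among the groups outside colon and a median SD of 0.44 to 0.57. DESeq2 called all 9 genes outside colon in place of 6, adding *Muc13*, *Clca1* and *Agr2* (adjusted *P* = 0.0181, 0.0295 and 0.00372). It also called 25141 of all 29841 genes it tested, so these calls are not particular to the set. *Agr2* also passed without TMM, without the filter, under the replicate block and without female colon replicate 1 or 2, and over all alternatives its adjusted *P* ranged from 0.00372 to 0.121.

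Differences between male and female colon changed sign for 4 genes, none of them called in any setting. *Clca1* was at 0 and *Spdef* at 0.03 without TMM. With each colon library left out in turn, the log2 difference (male minus female) ranged from -1.18 to 0.32 for *Muc2*, -0.42 to 0.82 for *Clca1* and -0.37 to 0.26 for *Spdef*, each highest without female colon replicate 1, and from -0.4 to 0.06 for *Zg16*, highest without male colon replicate 1. *Clca1* and *Spdef* were also at 0.15 without male colon replicate 1. Under the replicate block, *Clca1* was at 0.64, *Zg16* at 0.26 and *Spdef* at 0.2. Without both libraries with Paneth cell genes, an alternative chosen after seeing the data, as was leaving out female cerebellum replicate 2, *Clca1* was at 0.52. The cause was not tested.

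Over all genes, 97 passed between the sexes, with 405 by DESeq2, 43 and 58 without male colon replicate 1 or 2, 45 under the replicate block, and 38 in a fit on colon alone (20 with the block). Without TMM, 76 of 118 were higher in males, in place of 27 of 97. Each tissue on its own left 6671 genes in place of 18085. Libraries of the same number and sex did not deviate together (median *r* = 0, from -0.43 to 0.31 over 56 pairs), nor did male and female colon of the same number (median -0.13 over 3 pairs). Pairs of other numbers within a sex had the same median of 0. With deviations taken from means of 2 or 3 libraries, this check cannot tell whether libraries of the same number come from one animal. The block moved the calls among the 9 genes to 9, 0 and 7 in the 3 comparisons. Depth limits *Spdef* in colon and every trace outside it. Dividing by the GENCODE exon length moved *Fcgbp* from 279 to 83.4 FPKM, below *Muc2* (198) and *Agr2* (112), since its counts come from 29.8% of that length; the other 8 genes moved by less than 1 SD.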
